A study of Glycine max with 12 samples.

Results

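The genes described here are 10 soybean loci listed as 11S glycinins and 7S beta-conglycinins, the main storage proteins of the seed, out of 56044 genes in the deposited table. They were taken from a fixed list of identifiers, and the transcript model with the longest cDNA stood for each gene. All 10 passed the filter on low values (1 RPKM or more in 3 or more of the 12 libraries), which left 30775 genes for testing. RPKM is the number of sequencing hits per kilobase of transcript, scaled to the size of the library, so levels can be compared between genes. The samples were immature seed coats of greenhouse-grown plants, dissected away from the cotyledons, freeze-dried and sequenced as polyadenylated RNA. The line Clark 8 is i-k at one pigment locus and K1 at another, whereas Clark 18a is i-i and k1, so the lines differ at both. From seeds of 100 to 200 mg, the coat was cut into the future black saddle and the future yellow sections. Each of the 4 groups of a line and a region had 3 libraries, labelled Bio Repeat 1 to 3, and the labels do not say whether the repeats came from separate plants.

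Glycinins and beta-conglycinins are made on the rough endoplasmic reticulum of the developing cotyledons and are packed into protein storage vacuoles, where they serve the seedling as a store of nitrogen and carbon. A glycinin subunit is cut after synthesis into an acidic and a basic chain that stay joined by a disulfide bond, and glycinin assembles as a hexamer, whereas beta-conglycinin is a glycosylated trimer. Their transcripts belong to the embryo and climb steeply during seed filling, under regulators such as LEC1, FUS3 and ABI3 known from Arabidopsis. The seed coat is maternal tissue that encloses and feeds the embryo and is not known as a place of storage protein synthesis.

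No table used here gives these identifiers a gene name. The assignment of Glyma.03G163500, Glyma.03G163600, Glyma.19G164900, Glyma.10G037100 and Glyma.13G123500 to the 11S family, and of Glyma.10G246300, Glyma.20G148300, Glyma.20G148400, Glyma.20G148200 and Glyma.20G146200 to the 7S family, therefore rests on recollection of the literature, and single subunit names are not used. Chromosome numbers are part of the identifiers. The coding lengths divided the 7S members into 3 kinds. Glyma.10G246300 codes for 621 amino acids, the pair Glyma.20G148300 and Glyma.20G148400 for 605 in the longer coding model of each, and the pair Glyma.20G148200 and Glyma.20G146200 for 439.

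Both pairs behaved as single signals. Glyma.20G148200 and Glyma.20G146200 differed by at most 2 hits in any library, with 322 to 4763 hits in Glyma.20G148200. Glyma.20G148300 and Glyma.20G148400 differed by at most 78 hits, or 1.13%, with 1108 to 18219 hits in Glyma.20G148300. In all 12 libraries each difference was smaller than the Poisson standard deviation for 2 independent counts. For Glyma.20G148200 and Glyma.20G146200 it was 0 to 2 hits, beside standard deviations of 25.4 to 97.6. In Clark 8 yellow repeat 1, where both pairs reached their largest difference, it was 2 hits beside a standard deviation of 56.1, and 78 beside 117. The treatment of reads that match both copies is not given in the sources used here. Whether the same reads were counted at both copies was not tested. The 10 identifiers are therefore read as 8 separable signals, and either pair counts for 2 members in what follows.

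The 11S identifiers were less alike. Glyma.10G037100 codes for 563 amino acids, Glyma.13G123500 for 488 and Glyma.19G164900 for 481. Glyma.03G163500 has 5 models, which code for 387 to 495 amino acids on cDNAs of 1742 to 7505 bases. The longest cDNA is several times the coding length, and whether it joins neighbouring genes was not tested. In Clark 18a yellow repeat 1 it had 14.8 RPKM on the model of 7505 bases and 32.5 on the model of 1742 bases. The level of this gene therefore depends on the model, while its differences between libraries depend on it less.

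Glyma.03G163600 did not behave as the other listed genes. It codes for 401 amino acids, fewer than any other longest-cDNA 11S model here. Its RPKM ranged only 1.99-fold over the 12 libraries, against 8.55-fold to 25.5-fold for the other members. Across the 12 libraries its log2(RPKM + 1) correlated with the other distinct members at Pearson r of -0.13 to 0.41. Its course thus differs from that of the other members, but neither this nor its coding length tests its protein family. It is treated as a listed gene of unsettled kind and left out of the sums of 7 members below. The remaining 4 11S members correlated with one another at 0.86 to 0.93. Their closeness is in part a result of setting apart the gene with low correlations. These coefficients are descriptions over 12 libraries that share lines, regions and repeats.

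Over the whole table, summed hits per library ran from 83123127 to 192296346, with the 4 libraries of repeat 3 at 83123127 to 89505760 and numbered as a series of their own in the labels. The members were covered by 62 hits at the least (Glyma.19G164900) and 24898 at the most (Glyma.10G246300). Together the 10 members made up 0.0128% to 0.0888% of the summed RPKM of a library. The 4 seed coat identifiers on a list drawn up for comparison summed to 345 to 1160 RPKM, of which most came from 2 genes.

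Storage protein transcripts were present in every library at low to moderate levels, and the pattern that stood out was unequal libraries within Clark 18a. By mean over the 12 libraries the distinct members ranked, from the highest, Glyma.10G246300 (23.5 RPKM), Glyma.20G148300 (18.6), Glyma.03G163600 (16.8), Glyma.20G148200 (6.89), Glyma.10G037100 (6.37), Glyma.03G163500 (4.75), Glyma.13G123500 (2.65) and Glyma.19G164900 (2.00). The place of Glyma.03G163500 holds for its longest cDNA, since on the model of 1742 bases its mean was 10.6 RPKM, above that of Glyma.20G148200. Among the tested genes these means lay between the 24.7th percentile for Glyma.19G164900 and the 91.6th for Glyma.10G246300. The means of neighbours in this order differed by less than the larger of their SDs over the 12 libraries, except in 1 case: Glyma.03G163600 (SD 3.52) stood above Glyma.20G148200 (SD 4.94) and was the higher of the 2 in 11 of 12 libraries. Glyma.03G163500 was above Glyma.13G123500 in all 12.

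**Figure D1:**
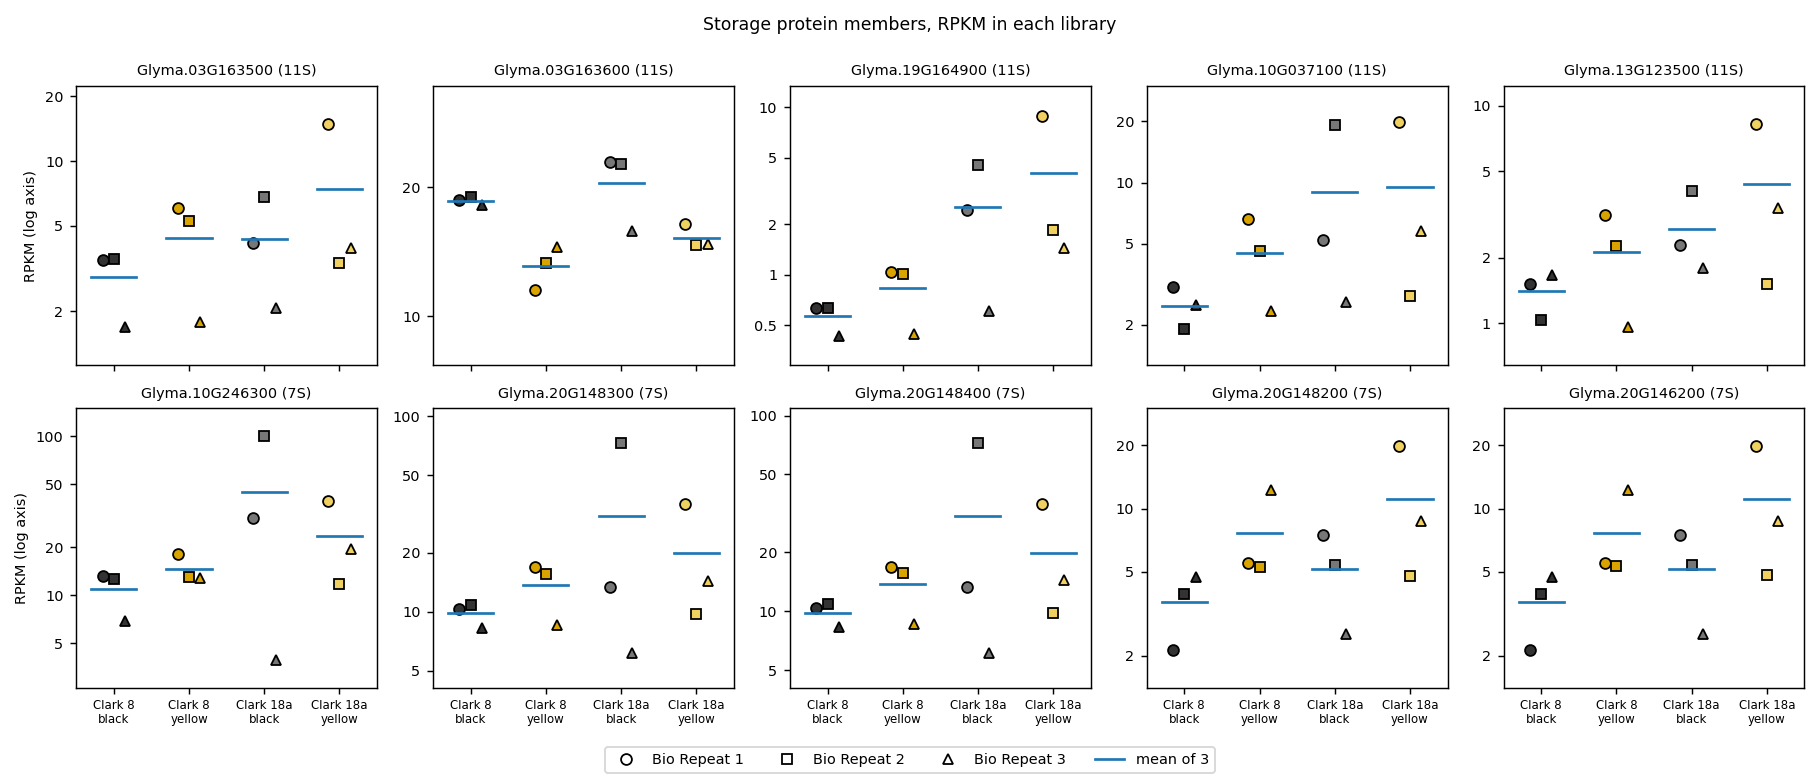
RPKM (log axis, scale set for each gene) of the 10 members in the 12 libraries; each symbol is a library, its shape the Bio Repeat, and the blue line the mean of 3. For most members Clark 18a yellow repeat 1 or Clark 18a black repeat 2 is the highest point (14.8 RPKM and 100.1 RPKM in the first panel of the upper and lower row), while Glyma.03G163600 stays between 11.5 and 22.9.

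Among the 11S members, Glyma.10G037100 measured, in Clark 8, 3.07, 1.90 and 2.50 RPKM in the black saddle (repeats 1, 2 and 3) and 6.65, 4.62 and 2.34 in yellow. In Clark 18a it measured 5.21, 19.2 and 2.59 in black and 19.8, 2.79 and 5.81 in yellow. The regions overlapped in each line, and 2 libraries of Clark 18a, black repeat 2 and yellow repeat 1, stood far above the other 10.

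Glyma.03G163500 measured 3.45, 3.51 and 1.69 RPKM in Clark 8 black and 6.07, 5.25 and 1.79 in Clark 8 yellow. In Clark 18a the values were 4.15, 6.84 and 2.07 in black and 14.8, 3.36 and 3.93 in yellow. In both lines the black library of repeat 3 was the lowest of its group, and in Clark 8 the yellow one was too.

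Glyma.13G123500 ran from 0.960 RPKM in Clark 8 yellow repeat 3 to 8.21 in Clark 18a yellow repeat 1, with a median of 2.03 over the 12 libraries. Glyma.19G164900 measured 0.631, 0.635 and 0.433 RPKM in Clark 8 black and 1.04, 1.02 and 0.443 in Clark 8 yellow. In Clark 18a it reached 2.45, 4.53 and 0.613 in black and 8.90, 1.86 and 1.45 in yellow. It was the lowest of the members in every Clark 8 library.

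The 7S members were led by Glyma.10G246300. It measured 13.2, 12.6 and 6.85 RPKM in Clark 8 black and 18.3, 12.98 and 12.8 in Clark 8 yellow. In Clark 18a black the repeats gave 30.4, 100.1 and 3.93, a spread of 25.5-fold within 1 group, and in yellow 39.4, 11.7 and 19.4. The highest and the lowest of the 12 libraries were thus replicates of the same group.

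The pair Glyma.20G148300 and Glyma.20G148400 followed the same course. The former measured 10.4, 10.9 and 8.30 RPKM in Clark 8 black and 16.9, 15.6 and 8.61 in Clark 8 yellow, then 13.5, 73.1 and 6.16 in Clark 18a black and 35.7, 9.81 and 14.4 in Clark 18a yellow. Its extremes fell in the same libraries as those of Glyma.10G246300.

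The pair Glyma.20G148200 and Glyma.20G146200 departed from this course. Glyma.20G148200 measured 2.12, 3.92 and 4.71 RPKM in Clark 8 black and 5.49, 5.30 and 12.3 in Clark 8 yellow. In Clark 18a the values were 7.49, 5.41 and 2.54 in black and 19.9, 4.81 and 8.71 in yellow. Clark 18a black repeat 2, the peak of the other 7S members, was not raised here, and Clark 8 yellow repeat 3 was the second highest library. Its log2 values correlated with the other distinct members of the 7 at r of 0.40 to 0.59, against 0.65 to 0.93 among the remaining 6.

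The mixture of storage protein transcripts therefore differed between libraries. For this purpose each near-identical pair was entered once and Glyma.03G163600 was left out, which gave 7 members. The 7S share of their summed RPKM ran from 64.1% in Clark 18a black repeat 3 to 85.9% in Clark 8 yellow repeat 3. Glyma.20G148200 alone held 2.54% in Clark 18a black repeat 2 and 31.3% in Clark 8 yellow repeat 3. Its ratio to Glyma.20G148300 was 0.0741 and 1.43 in those libraries. Glyma.10G246300 and Glyma.20G148300 kept closer company, with a ratio of 0.639 to 2.26 over the 12 libraries. The summed RPKM of the 7 members was 19.7 to 213 in the 3 Clark 18a black libraries, 35.8 to 147 in Clark 18a yellow, 26.2 to 34.5 in Clark 8 black and 39.2 to 57.6 in Clark 8 yellow. The Clark 8 regions did not overlap in this sum, and the Clark 18a regions did. Among the 7 members, only Glyma.20G148200 had Clark 8 regions that did not overlap. By that measure 20.9% of all tested genes were lower in black. The share of sums of 7 genes without overlap was not counted.

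**Figure D2:**
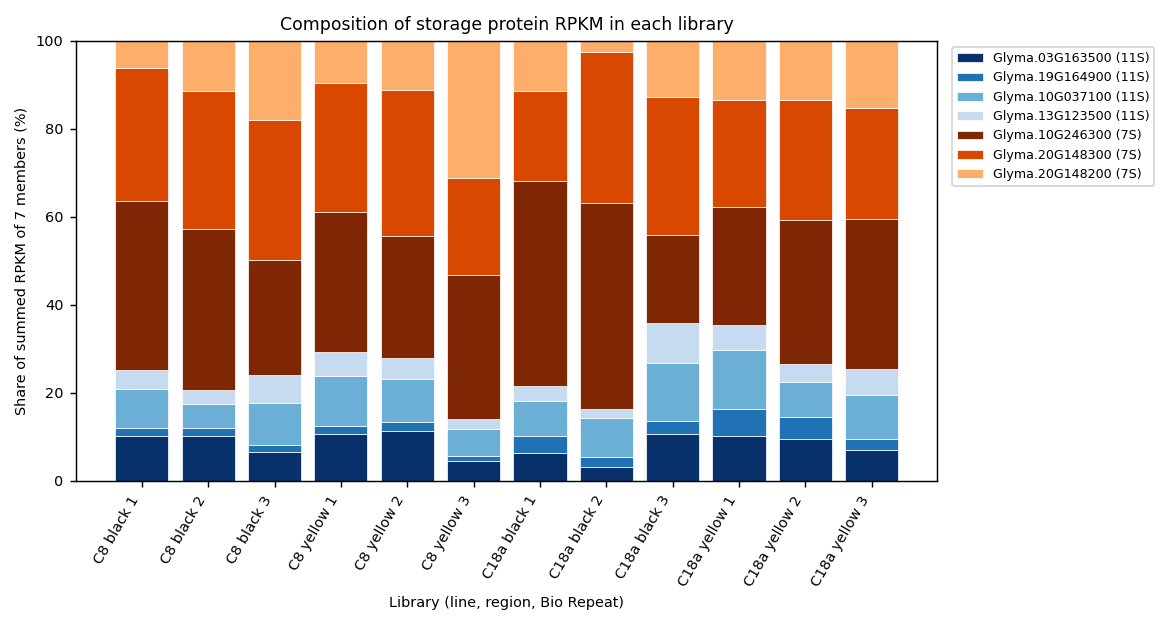
Share of the summed RPKM of 7 members (percent) in each library, with 11S members in blue and 7S members in orange and brown; the near-identical pairs are entered once. The 7S share is between 64.1% and 85.9%, and Glyma.20G148200 (top segment) ranges from 2.54% to 31.3%.

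The first question of the design is whether the black saddle and the yellow region of 1 coat differ. In Clark 8, limma on log2(RPKM + 1), with p-values adjusted by the Benjamini-Hochberg method over all 30775 genes, called 0 of the 10 members higher or lower at an adjusted p under 0.05, where 13.9% of all tested genes were called, 7.51% higher and 6.35% lower. At an unadjusted p under 0.05 there was 1 member, Glyma.03G163600, beside 8433 of the 30775 tested genes. Voom on recovered hits called the same 1, where 13.2% of all tested genes were called. The other 9 had log2 differences, black minus yellow, of -0.88 to -0.21. The median over the 5 7S members was -0.43 and over the 5 11S members -0.32, beside -0.07 for all tested genes. Black and yellow values stood apart for Glyma.20G148200 and Glyma.20G146200, which were lower in black, and for Glyma.03G163600, which was higher. By that measure 20.9% of all tested genes were lower in black and 14.6% higher.

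Glyma.03G163600 was the member nearest to a call between the regions. It measured 18.7, 18.9 and 18.2 RPKM in Clark 8 black and 11.5, 13.3 and 14.5 in Clark 8 yellow. In Clark 18a it measured 22.9, 22.6 and 15.8 in black and 16.4, 14.6 and 14.7 in yellow. Black was above yellow in 6 of 6 pairs of the same line and repeat. These pairs are not independent, and the share of all tested genes alike in every pair was not counted. The limma log2 difference was 0.48 in Clark 8 (SE 0.15, adjusted p = 0.0579) and 0.38 in Clark 18a (SE 0.15, adjusted p = 0.116). With a common term for each repeat in the model, it passed in Clark 8 (limma adjusted p = 0.04, where 24.3% of all tested genes were called) and not in Clark 18a (0.0815, where 25.7% were). With a term for each line and repeat, a fit added after the data were seen, it passed in both (limma adjusted p = 0.0167 and 0.0342), where 37.1% and 39% of all tested genes were called, so that 1 of 10 members lay below the background.

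For Glyma.20G148200 the difference was -0.88 in Clark 8 (SE 0.48, 95% interval -1.94 to 0.19, limma adjusted p = 0.275) and -0.87 in Clark 18a (SE 0.48, interval -1.94 to 0.19, adjusted p = 0.267). Yellow was above black in 5 of its 6 pairs, and Clark 18a repeat 2 went the other way by 0.14. It did not pass with a term for each line and repeat either (limma adjusted p = 0.0651 and 0.0639). For Glyma.03G163500, Glyma.19G164900, Glyma.10G246300 and Glyma.20G148300 the same pair, Clark 18a repeat 2, was likewise the only 1 of 6 with black above yellow. In that pair the difference was 2.99 for Glyma.10G246300 and 2.78 for Glyma.20G148300.

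In Clark 18a, limma called 0 of 10 members in either direction, where 15% of tested genes were called, 8.86% higher and 6.11% lower in black. Again 1 member, Glyma.03G163600, had an unadjusted p under 0.05, beside 8771 of the 30775 tested genes. Voom called 0 members, where 15.3% of all tested genes were called. The log2 differences ran from -0.87 for Glyma.20G148200 to 0.38 for Glyma.03G163600, and no member had regions that did not overlap, beside 15.7% of all tested genes higher and 14.7% lower. The intervals were wide: for Glyma.10G246300 the difference of 0.19 had a 95% interval of -1.68 to 2.06. It went to -0.81 without Clark 18a black repeat 2 and to 1.37 without Clark 18a black repeat 3. The difference of the region differences between the lines (the interaction) was called for 0 of 10 members and for 0.0162% of all tested genes. Of all tested genes 0.00975% were called higher and 0.0065% lower. An unadjusted p under 0.05 was reached by 0 members, beside 767 of the 30775 tested genes. The interaction ran from -0.18 to 0.63 over the members, and voom called 0 members and 0% of all tested genes.

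**Figure D3:**
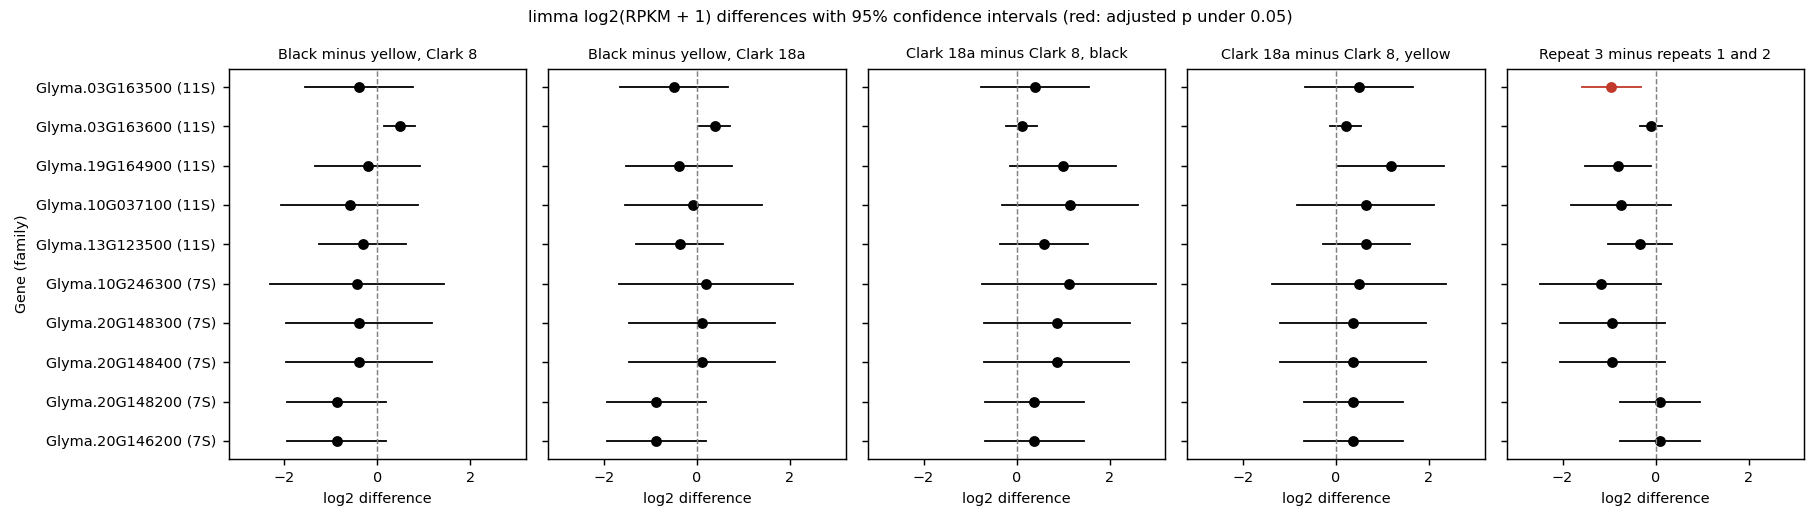
limma differences on the log2(RPKM + 1) scale (horizontal axis) with 95% confidence intervals for the 10 members in 5 comparisons; red marks an adjusted p under 0.05. The only red point is Glyma.03G163500 between the repeats (-0.95), not called with black and yellow averaged first, and in both line comparisons all 10 points lie above 0.

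Between the lines, all 10 members had a higher mean in Clark 18a than in Clark 8 in both regions, and none passed. In the black saddle the log2 differences, Clark 18a minus Clark 8, ran from 0.11 for Glyma.03G163600 to 1.15 for Glyma.10G037100. Limma called 0 of 10, where 0.0812% of all tested genes were called, 0.0195% higher and 0.0617% lower. An unadjusted p under 0.05 was reached by 0 members, beside 1726 of the 30775 tested genes. Voom called 0 members, where 0.052% of all tested genes were called. In yellow the differences ran from 0.21 for Glyma.03G163600 to 1.18 for Glyma.19G164900. Limma called 0 of 10 there too, where 0.413% were called, 0.107% higher and 0.305% lower. Here 1 member (Glyma.19G164900) had an unadjusted p under 0.05, beside 4115 of the 30775 tested genes. Voom called 0 members, where 0.338% of all tested genes were called. The median difference over all tested genes was 0.02 in black and -0.02 in yellow.

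Part of these differences rested on single libraries. Without Clark 18a yellow repeat 1, the yellow difference of Glyma.03G163500 went from 0.49 to -0.10 and that of Glyma.20G148300 from 0.37 to -0.13. Without Clark 18a black repeat 2, the black difference of Glyma.20G148300 went from 0.87 to -0.08. The libraries of the lines did not overlap in yellow for Glyma.03G163600 and Glyma.19G164900 (2 of 10, beside 8.1% of all tested genes higher and 9.77% lower in Clark 18a), nor in black for Glyma.13G123500 (1 of 10, beside 5.06% higher and 2.93% lower).

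Glyma.19G164900 was the 1 member of 10 whose line difference had the same sign in every pair, though its size varied widely. It was higher in Clark 18a in 6 of 6 pairs of the same region and repeat, by 0.17 to 2.28 on the log2(RPKM + 1) scale. The pairs are not independent, as same-numbered libraries deviated together. The share of all tested genes with the same sign in every pair was not counted. Its difference was 1.18 in yellow (SE 0.52, 95% interval 0.05 to 2.32, limma adjusted p = 0.356) and 1.00 in black (SE 0.52, interval -0.13 to 2.14, adjusted p = 0.898). It did not pass in either region, and over the alternatives the yellow adjusted p ran from 0.0382, with array weights (a setting that called 23.8% of all tested genes), to 0.726.

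Set against Glyma.03G163500 in the same library, Glyma.19G164900 parted the lines. The ratio of their RPKM was 0.170 to 0.257 in the 6 Clark 8 libraries and 0.296 to 0.662 in the 6 Clark 18a libraries, without overlap. In Clark 18a the repeat 3 libraries had the lowest ratios, 0.296 in black and 0.368 in yellow, and in Clark 8 they had the highest, 0.257 and 0.247. The ranges also stayed apart with each of the 5 models of Glyma.03G163500 as the divisor, and were closest with the model of 1960 bases (at most 0.117 in Clark 8 and at least 0.122 in Clark 18a). This ratio was picked after its values were seen, from 28 ratios among the 8 distinct members of which it was the 1 without overlap, so it carries no test. Hits shared between these genes were not tested. Outside repeat 3, line and library numbering cannot be told apart for this ratio either.

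**Figure D4:**
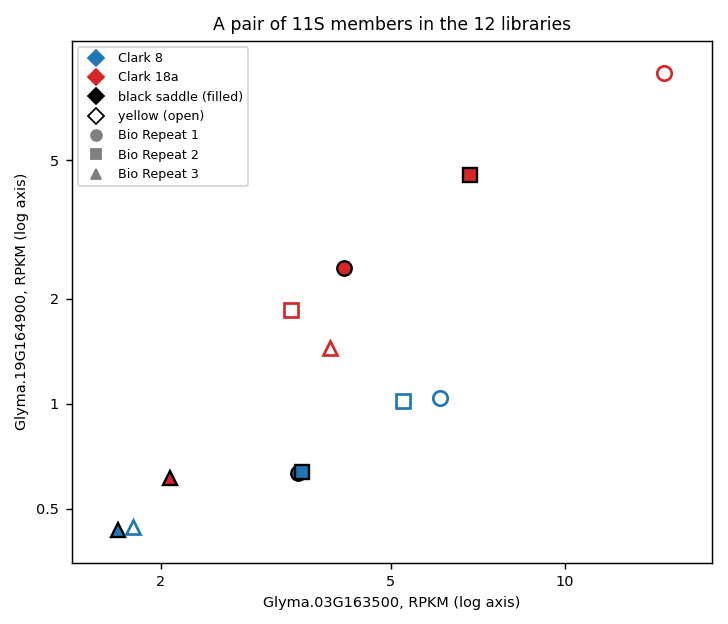
RPKM of Glyma.19G164900 (vertical) against Glyma.03G163500 (horizontal), both on log axes, in the 12 libraries; colour gives the line, fill the region and shape the Bio Repeat. The Clark 18a libraries lie along a higher line than the Clark 8 libraries, with ratios of 0.296 to 0.662 against 0.170 to 0.257.

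The third labelled factor is the Bio Repeat. In a limma model with the group means and the repeat, repeat 3 was set against the mean of repeats 1 and 2, and 29% of all tested genes were called, 13.2% higher and 15.8% lower in repeat 3. Of the 10 members 1 was called lower and 0 higher, a share below that background. An unadjusted p under 0.05 was found for 2 members, beside 13082 of the 30775 tested genes. Voom called 1 member too, where 29.9% of all tested genes were called. The member called was Glyma.03G163500, with a limma log2 difference of -0.95 (SE 0.28, adjusted p = 0.0338). Its call was lost without any 1 of 8 libraries, with limma adjusted p-values up to 0.0991 (without Clark 8 yellow repeat 3), and without a filter on low values (0.0662). That model counts the black and yellow libraries of a line and repeat as independent, although their deviations from the group means correlated at 0.52 to 0.75. With each such pair averaged first, a fit on 6 means added after the data were seen, limma called 0 of 10 members and 0.435% of all tested genes. Glyma.03G163500 then had a limma adjusted p of 0.068, and the differences themselves were the same. In this fit 7 members had an unadjusted p under 0.05, beside 7565 of the 30775 tested genes.

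The remaining members lay from -1.18 for Glyma.10G246300 (SE 0.58, limma adjusted p = 0.151) to 0.09 for Glyma.20G148200 and Glyma.20G146200. The medians were -0.74 over the 11S and -0.93 over the 7S members, beside -0.02 for all tested genes. The sum of the 7 members in repeat 3 was 26.2 RPKM in Clark 8 black, 39.2 in Clark 8 yellow, 19.7 in Clark 18a black and 57.1 in Clark 18a yellow. In 3 of the 4 groups, all but Clark 18a yellow, repeat 3 had the lowest sum. These libraries were also the shallowest and were numbered apart, and depth, numbering and repeat cannot be told apart.

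Other transcripts of the embryo give these levels a setting. A list of 15 identifiers recalled as embryo seed proteins (lectin, trypsin inhibitors, P34, lipoxygenases, sucrose-binding proteins, oleosins and an albumin) was drawn up for comparison, and no table used here names its members. All 15 passed the filter on low values. Limma called 0 of 15 between the regions of either line, where 13.9% (Clark 8) and 15% (Clark 18a) of all tested genes were called. Between the lines it called 0 of 15 in either region, beside 0.0812% in black and 0.413% in yellow. In repeat 3, 8 of 15 were called lower and 0 higher, beside 15.8% of all tested genes lower and 13.2% higher. The median difference over the list was -1.21. With black and yellow averaged first, limma called 2 of 15 lower, beside 105 of the 30775 tested genes. The summed RPKM of the list was 60.8 to 216 in Clark 8 black, 122 to 210 in Clark 8 yellow, 28.2 to 415 in Clark 18a black and 94.4 to 333 in Clark 18a yellow. Its highest libraries, Clark 18a black repeat 2 (415 RPKM) and Clark 18a yellow repeat 1 (333), were those of the storage proteins, and its lowest was Clark 18a black repeat 3 (28.2), again as for the 7 members. In bulk RNA, fewer embryo cells and less RNA per embryo cell cannot be told apart, and the part that embryo tissue had in the members' levels was not tested.

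A further list held 6 identifiers recalled as regulators of seed maturation, 5 of which were tested. Limma called 0 of 5 in each of the 6 comparisons. Of all tested genes it called 13.9% between the regions of Clark 8 and 15% between those of Clark 18a. Between the lines it called 0.0812% in black and 0.413% in yellow, and 0.0162% for the interaction and 29% for repeat 3. Its sum was 28.6 to 31.1 RPKM in Clark 8 black, 32.6 to 48.7 in Clark 8 yellow, 22.2 to 32.6 in Clark 18a black and 30.8 to 40.4 in Clark 18a yellow. Most of it came from Glyma.16G050500, which measured 18.5 to 33.9 RPKM, and Glyma.20G035700 was at or near 0 in every library. The place of Glyma.16G050500 in the list is in doubt, as its identity, like that of the others, was recalled and could not be checked. Without Glyma.16G050500 the sum was 3.42 to 10.03 RPKM in Clark 8 black and 9.06 to 14.7 in Clark 8 yellow. In Clark 18a this sum was 0.105 to 9.65 in black and 7.23 to 11.5 in yellow. The remaining 4 were lowest in Clark 18a black repeat 3, where they measured 0.0143, 0.00984, 0.0100 and 0.0711 RPKM (Glyma.08G357600, Glyma.18G176100, Glyma.07G268100 and Glyma.17G005600). They were next lowest in Clark 8 black repeat 3, at 1.24, 0.874, 0.760 and 0.547 RPKM in the same order, against at least 2.47, 1.76, 1.20 and 1.32 in the other 10 libraries. These 4 were singled out after their values were seen, and Glyma.16G050500 did not share their pattern. It measured 22.1 RPKM in Clark 18a black repeat 3 and 27.6 in Clark 8 black repeat 3. Its limma log2 difference for repeat 3 was 0.25, against -0.79 to -0.45 for the 4. In Clark 18a black repeat 3 Glyma.20G148300 measured 6.16 RPKM and Glyma.10G246300 3.93, for both the lowest of the 12 libraries. A link between the regulators and the members was not tested.

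The 4 identifiers of the seed coat list summed to 577 to 1112 RPKM in Clark 8 black, 345 to 768 in Clark 8 yellow, 1038 to 1160 in Clark 18a black and 546 to 1044 in Clark 18a yellow. Limma called 1 of 4 higher in black in Clark 8 (Glyma.09G022300, adjusted p = 0.0496), beside 7.51% of all tested genes. It called 1 of 4 higher in repeat 3, beside 13.2%, and 0 of 4 in the other comparisons. Of all tested genes, 15% were called between the regions of Clark 18a and 0.0162% for the interaction. Between the lines it was 0.0812% in black and 0.413% in yellow. With black and yellow averaged first, the call in repeat 3 was lost, and 29 of the 30775 tested genes were called higher. The yellow library of Clark 18a with the highest 11S levels, repeat 1, had the lowest seed coat sum of its line, 546 RPKM. Clark 18a black repeat 2, with the highest 7S levels, had 1038.

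**Figure D5:**
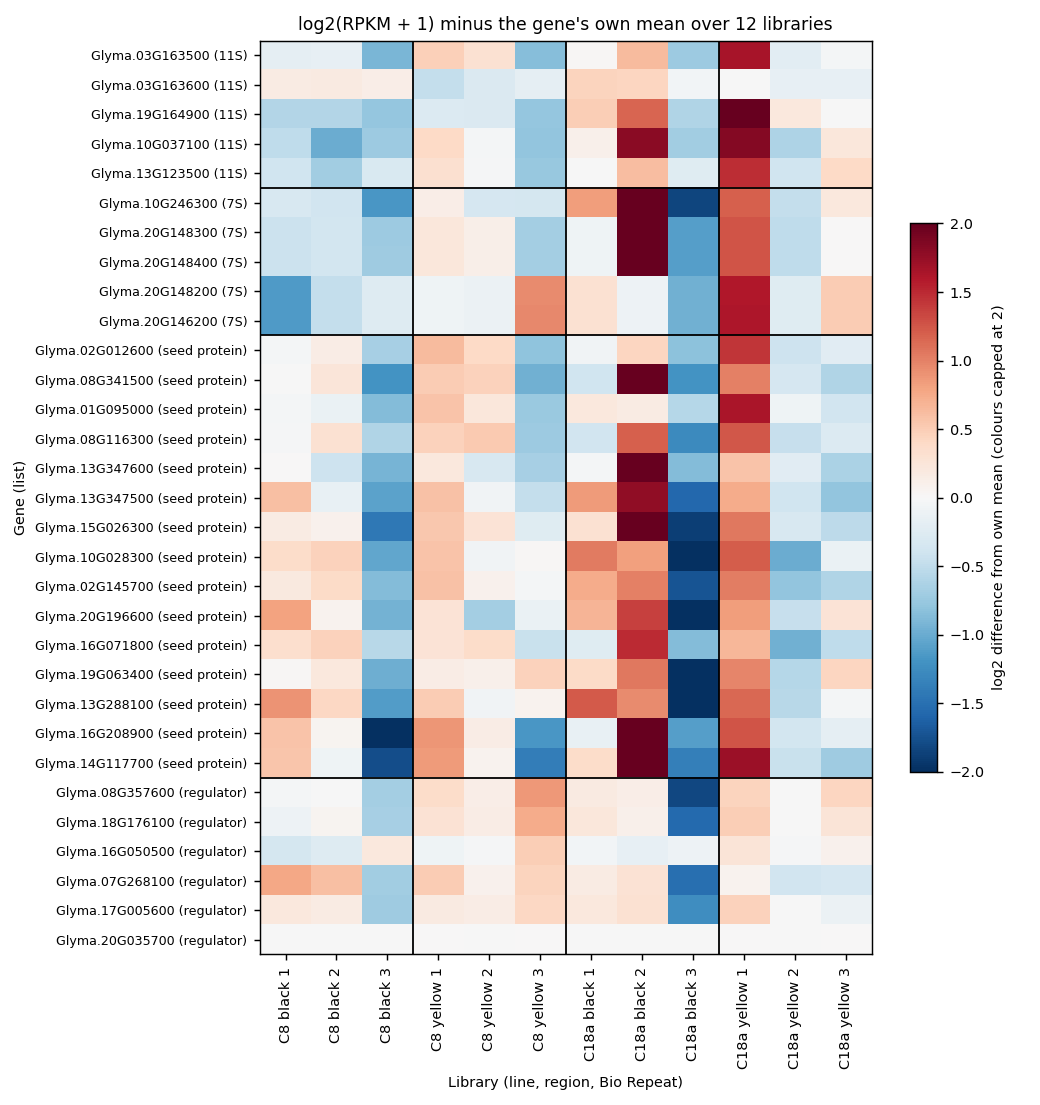
log2(RPKM + 1) minus each gene's own mean over the 12 libraries, for the 10 members, 15 recalled embryo seed protein identifiers and 6 recalled regulators; red is above and blue below the mean, and colours are capped at 2. Clark 18a black repeat 2 and yellow repeat 1 are red for most members and seed proteins (sums of 415 and 333 RPKM over the seed protein list), and Clark 18a black repeat 3 is blue (28.2).

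The likeness extended to single genes. The mean log2(RPKM + 1) of the 10 members was correlated with every other tested gene over the 12 libraries, as a description with no test. The embryo seed protein list had r of 0.63 to 0.82 with a median of 0.76, beside a median of 0.03 over the 30765 other tested genes, and 13 of its 15 members were among the 1% with the highest r. The regulator list had 0.16 to 0.58 and the seed coat list -0.37 to -0.16. The libraries share lines, regions and repeats, so they are not independent points. The lists were drawn up with earlier results of these data known, so their place among all genes is no independent support. The embryo seed protein values were not recomputed without Clark 18a black repeat 2 and yellow repeat 1, where that list had its highest sums.

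The 5 genes most like the members were Glyma.05G158600 (r = 0.90, Spearman 0.79), Glyma.20G111000 (0.87, 0.71), Glyma.04G136500 (0.86, 0.62), Glyma.08G116400 (0.85, 0.65) and Glyma.05G179100 (0.84, 0.85). All 5 were low, between 0.0359 and 6.95 RPKM in the 12 libraries, and no table used here names them. The first measured 6.04 RPKM in Clark 18a black repeat 2 and 5.68 in Clark 18a yellow repeat 1, and at most 1.63 in the other libraries. Without those 2 libraries, which lay farthest from the median of the members, r over the remaining 10 fell to 0.53, 0.55, 0.58 and 0.42 for the first 4 genes, whose likeness thus rests largely on these libraries, and was 0.79 for Glyma.05G179100. Over the 8 libraries of repeats 1 and 2 the 5 values were 0.93, 0.86, 0.87, 0.85 and 0.90.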

How the data were processed

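The authors deposited 1 table of RPKM values for 88647 transcript models, with coding and cDNA lengths (a unit other than expression, in bases), per the file headers. Bowtie 1 is named as the aligner, per the submitters' processing notes. Build, annotation version, treatment of multiple hits and strandedness: not given in the sources used here. RPKM times cDNA length gave whole hits per library (100% of values under 100 hits within 0.05). The longest-cDNA model stood for each gene. The package limma (version 3.58.1, R 4.3.3) was used on log2(RPKM + 1), with a mean for each of 4 groups, an intensity trend and Benjamini-Hochberg adjustment over 30775 genes, two-sided, threshold 0.05. Fold changes on this scale understate changes of low genes. Voom used TMM factors computed from recovered hits. The script was tested on simulated data. The p-values measure the spread between these libraries.

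Same-numbered libraries deviated together. The correlation of deviations from group means was above 0.1 in 17 of 18 pairs, and in all pairs of groups compared. Between libraries of different lines it was 0.036 to 0.503. Differently numbered libraries were not correlated. The 3 deviations of a group sum to 0, so a shift of repeat 3 alone also moves repeats 1 and 2 together. Whether repeats 1 and 2 match by number between the lines is therefore not shown. Black and yellow libraries of the same line and repeat gave 0.52 to 0.75, so fits with a block or with paired means are given where a call changes.

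The rule for named genes took all 10 members, the comparison lists in counts, and the 5 genes with the highest correlation to the members' mean. List members by value were to be those a reference table names, which none of the 59048 lines does; those printed were chosen after their values were seen. The members and lists were chosen with earlier results of these data known.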

Additional observations from a re-analysis of the deposited data

How the results depend on the processing

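Of 1320 member differences recomputed under 24 settings, 1215 kept their direction and their side of the threshold, 79 changed sign, 16 passed in addition and 10 no longer passed; 0 of those that changed sign passed. Each group had 3 libraries, and the members had 62 hits or more in each.

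The number of members called between the regions of Clark 8 was 1 rather than 0, Glyma.03G163600, without a filter, with the replicate block, with only the libraries compared, without repeat 3, with array weights, with voom, with library median centring and with the block within each line (added after the data were seen). The share of all tested genes called in these 8 settings was, in the same order, 12%, 24.3%, 14.3%, 14.1%, 37.1%, 13.2%, 13.2% and 37.1%. In Clark 18a it was 1 without repeat 3, with array weights and with the block within each line, where 15.3%, 19.8% and 39% of all genes were called. In yellow between the lines it was 1, Glyma.19G164900, with array weights, where 23.8% of all genes were called. A share of 1 in 10 lies below each of these. For repeat 3 it was 2 with a pseudocount of 0.1, which added Glyma.19G164900, and 0 without a filter, with 29.3% and 16.7% of all genes called. It was 0 with black and yellow averaged per line and repeat (added after the data were seen), with 0.435% called. Leaving out 1 library at a time gave 0 to 1 members between the regions of each line and 0 to 2 for repeat 3. Between the regions, 1 was called without Clark 18a black repeat 3, with 4583 (Clark 8) and 3751 (Clark 18a) of 30775 genes called. For repeat 3, 2 were called without Clark 18a yellow repeat 2, with 7312 genes called. Where 0 members were called for repeat 3, 5877 to 8494 genes were. The replicate block changed no other call. The cause was not tested.

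Signs that changed were all of differences that did not pass. The interaction of Glyma.03G163500 became 0.18 without repeat 3, 0.15 with array weights and 0.0094 with the longest coding model (added after the data were seen). That of Glyma.13G123500 became 0.0052 with a pseudocount of 0.1, 0.46 without repeat 3, 0.36 with array weights and 0.19 with voom, and that of Glyma.19G164900 became 0.027 without repeat 3 and 0.033 with array weights. The interactions of Glyma.20G148200 and Glyma.20G146200 were both -0.14 with array weights, and -0.053 and -0.051 with centring. Black minus yellow in Clark 18a for Glyma.10G037100 became 0.34 without repeat 3 and 0.41 with array weights.

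Leaving out 1 library at a time, the interaction ranged from -0.43 to 0.50 for Glyma.03G163500, -0.18 to 0.070 for Glyma.03G163600, -0.18 to 1.19 for Glyma.10G037100, -0.38 to 1.80 for Glyma.10G246300, -0.50 to 0.43 for Glyma.13G123500, -0.59 to 0.46 for Glyma.19G164900, -0.43 to 0.50 for Glyma.20G146200 and Glyma.20G148200, and -0.45 to 1.23 for Glyma.20G148300 and Glyma.20G148400. Between the lines in black it ranged from -0.085 to 1.60 for Glyma.20G148300 and -0.094 to 1.59 for Glyma.20G148400. In yellow it ranged from -0.10 to 0.83 for Glyma.03G163500, -0.044 to 1.18 for Glyma.10G037100, -0.12 to 0.80 for Glyma.20G146200 and Glyma.20G148200, -0.13 to 0.75 for Glyma.20G148300 and -0.14 to 0.74 for Glyma.20G148400. Black minus yellow in Clark 18a ranged from -0.83 to 0.10 for Glyma.03G163500, -0.78 to 0.59 for Glyma.10G037100, -0.81 to 1.37 for Glyma.10G246300, -0.82 to 0.12 for Glyma.13G123500, -0.80 to 0.25 for Glyma.19G164900, and -0.85 to 0.84 for Glyma.20G148300 and Glyma.20G148400. Repeat 3 against the others ranged from -0.20 to 0.031 for Glyma.03G163600 and -0.23 to 0.47 for Glyma.20G146200 and Glyma.20G148200.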
